A study of Bos taurus with 5 samples.

Results

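The transcripts described here were those detected in second-largest follicles (F2) and in no largest follicle (F1) of the cow. A probe was taken when the scanner software called its spot well above background on both F2 arrays and on none of the 3 F1 arrays. Of 10163 probes, 123 met this rule, which is 1.21% of the array, and 120 remained after SPP1, OLR1 and IL1RN were left out. The members were thus chosen on the same 5 arrays that are described below, so their signals in F1 and F2 are given as a description with no test. The opposite pattern, well above background on all 3 F1 and on no F2, was met by 92 probes, 0.905% of the array. Of the 120 members, 26 carried a RefSeq mRNA accession, 25 of which were matched to a gene symbol, and 94 carried other GenBank accessions.

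Total RNA came from follicular walls (granulosa cells and theca interna, with stroma and theca externa stripped away), and 1 one-color array was used per follicle. The F1 group held 3 follicles (replicates 1 to 3) and the F2 group held 2 (replicates 1 and 2), all from pregnant Japanese Black cows that received no treatment named in the labels. By the methods, at least 1 of the F2 must come from the same cow as 1 of the F1, and which pair this is was not named. Signals below are background-subtracted spot signals divided by the median of the GAPDH spots of the same array, so that 1 equals the GAPDH median and a value below 0 lies under the local background.

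In a bovine follicular wave a cohort of antral follicles grows, one becomes dominant and the others regress by atresia. Granulosa cells line the follicle and make oestradiol and inhibin, and theca interna cells supply androgen. The theca is vascular and holds macrophages and other leukocytes, which also enter regressing follicles. In RNA of a whole follicular wall, fewer cells of a type and less RNA per cell cannot be told apart.

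Each measurement rests on a 60-base probe. Printed below in lower case, with no base marked, are the inner 30 bases (bases 16 to 45) of 10 probes. These belong to the named members with the largest difference. The letters identify each probe and were not aligned to a transcript. NM_173879, among the 10, was not matched to a symbol.
CLDN1: ggaagccttttccatttgtattactgcttc
FABP4: catcgaactccatgactttctgctggatac
NM_173879: agatatcaaaccacttagagtgggcaatgc
NT5E: tttataccaatagccaaaaattctccttgc
IL18: aggacatgatgataagatacaatttgagtc
NCAM1: agcttctgggggtagatctcaatttgcagt
JCHAIN: actaaatctaacaaattatgtactccaaaa
SIRPA: aattattgagaaatgtgaaatgtgcaattt
MSR1: catttaatatccttggtaaacgcacatgta
TLR2: ttgagagagtgtatataacccaaggtgcag
These 10 probes carried 10 different RefSeq accessions. No other probe on the array carried the symbol of a named member. Only RefSeq probes were matched to symbols, so second probes among the other accessions, or for NM_173879, could not be found in this way. A stretch of 20 or more bases was shared between 2 members of other accession (42 bases) and between a member and a probe that was well above background on no array (32 bases). The GC content of the 60-base probes had a median of 40% in the members and 43.3% on the whole array.

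The members were weak spots. The lowest signal that the software called well above background was 0.0145 and 0.0167 in F2 replicates 1 and 2, and 0.0182, 0.0208 and 0.0124 in F1 replicates 1, 2 and 3. In 46 of the 120 members the weaker F2 signal lay within 2-fold of this level on its array, and in 22 it was at least 5 times the level. Signals of the members in F1 lay between -0.0471 and 0.0289. Not well above background did not mean at background in every case, since 81 of the 120 members had at least 1 F1 spot that the software still called positive and significant, a weaker criterion. The other 39 had none. The signals of F1 and F2 overlapped in 6 members, and the rule itself left little room for overlap. No member was saturated or carried a spot outlier flag, and 7 had a background outlier flag on some array.

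Because the F1 signals of the members are only bounds, the difference is given as a lower bound. It is the mean log2 signal of the F2 minus the mean, over the F1 arrays, of the lowest signal well above background on that array or of the probe's own signal where this was higher. The lower bound was at least 2-fold in 88 of the 120 members, at least 4-fold in 39 and at least 8-fold in 14, with a median of 2.73-fold and a range from 1.14-fold to 273-fold. Among the 26 RefSeq members it ranged from 1.55-fold to 16.6-fold, with 10 at 4-fold or more. With the 5th percentile of the signals well above background as the dim level the 39 became 21. With normexp background correction, which adds an offset of 50 to every intensity, they became 2. Normexp moved 24 of the 26 RefSeq bounds, and the 5th percentile 17, by more than the SD between the F2, so the bounds below hold for the main setting.

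Cell junction, adhesion and surface enzyme genes gave lower bounds of at least 4-fold in 3 of 3 named members. CLDN1, or claudin 1, is a tight junction protein that seals the space between epithelial cells. Its signal was 0.218 and 0.353 in F2 replicates 1 and 2, against -0.0139, -0.00897 and -0.0163 in F1 replicates 1, 2 and 3. All 3 F1 lay under their background, and the F2 signal was at least 16.6-fold higher. The FABP4 probe gave the next largest bound among named members and is described with the lipid genes.

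NT5E, also known as CD73, is an ectoenzyme that forms adenosine from AMP outside the cell. The NT5E signal was 0.313 and 0.0709 in the F2 and -0.00664, -0.0375 and -0.0127 in the F1. The bound was 8.91-fold, but the F2 differed by 4.41-fold. From F2 replicate 1 alone the bound was 18.7-fold, and from F2 replicate 2 alone 4.24-fold. NCAM1 is a cell adhesion molecule of neural cells, NK cells and endocrine tissues. Signals of NCAM1 were 0.141 and 0.102 in the F2 and 0.00935, 0.0262 and 0.00640 in the F1, a bound of 6.67-fold. NCAM1 was the only named member in which all 3 F1 spots were called positive and significant, so a weak signal was present in every F1.

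The other listed cell adhesion and integrin genes with a matching RefSeq symbol did not share 1 direction. NCAM1 was the member on this list. Of 12 other probes of the list tested with limma, 2 were greater in F2, 1 was greater in F1 and 9 did not pass. In this fit over 5528 probes, 5.08% of all probes were greater in F2 and 6.39% were greater in F1. ITGAV, the integrin alpha V subunit, was 11.01 and 12.3 in the F2 and 1.43, 1.85 and 0.979 in the F1 (log2 difference 3.09 ± 0.35 SE, limma adjusted p = 0.00386). SELP, or P-selectin, an adhesion receptor of platelets and endothelium, was 0.636 and 0.864 in the F2 and 0.0395, 0.0838 and 0.0434 in the F1 (log2 difference 3.82 ± 0.41 SE, limma adjusted p = 0.00329). ITGB5 went the other way, with signals of 7.29 and 6.89 in the F2 and 53.3, 30.3 and 28.5 in the F1 (log2 difference -2.34 ± 0.36 SE, limma adjusted p = 0.0116). With either F2 left out these 3 calls were lost (limma adjusted p from 0.0636 to 0.163), a single F2 then being assumed to vary like the F1.

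**Figure D1:**
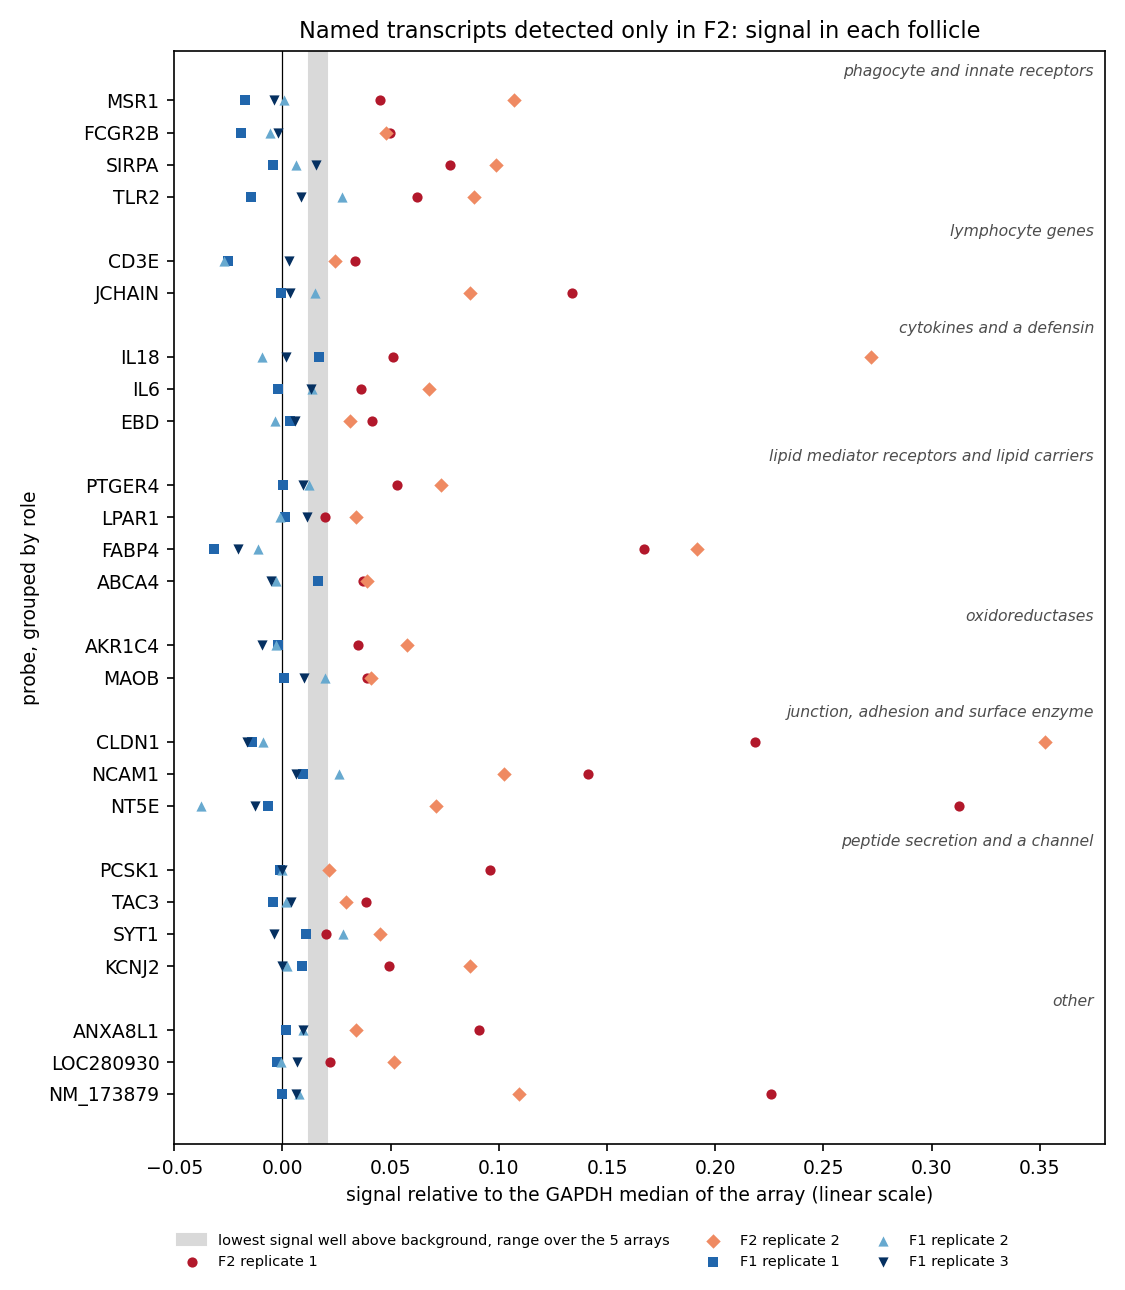
Signal of 25 named probes in each of the 5 follicles, relative to the GAPDH median of the array on a linear scale, grouped by the role of the gene; each point is 1 follicle and the grey band spans the lowest signals called well above background on the 5 arrays (0.0124 to 0.0208). The F1 points lie at or near 0, the F2 points lie to their right, and SYT1 is the named probe in which an F1 (0.0279) exceeds an F2 (0.0203).

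Phagocyte and innate immune receptor genes made up 4 of the named members, and 3 of them had a lower bound of at least 4-fold. MSR1, the class A macrophage scavenger receptor, takes up modified lipoproteins and cell debris. Its signal was 0.0451 and 0.107 in the F2 and -0.0173, 0.000952 and -0.00387 in the F1, a bound of 4.16-fold. From F2 replicate 1 alone the bound fell under the 4-fold mark, to 2.70-fold, and from F2 replicate 2 alone it was 6.40-fold. SIRPA, the myeloid receptor for CD47 that restrains phagocytosis, gave 0.0774 and 0.0986 in the F2 and -0.00453, 0.00616 and 0.0154 in the F1. TLR2, which binds bacterial lipopeptides, had 0.0621 and 0.0887 in the F2 and -0.0143, 0.0274 and 0.00852 in the F1. For SIRPA and TLR2 the bounds were 4.86-fold and 4.05-fold, although 2 of the F1 spots of TLR2 and 1 of SIRPA were positive and significant. The TLR2 bound was 3.39-fold from F2 replicate 1 alone.

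FCGR2B, the inhibitory Fc receptor for IgG, had nearly equal signals in the F2, 0.0499 and 0.0481, and was under background in every F1 at -0.0190, -0.00575 and -0.00219. Its bound of 2.93-fold is small because the F2 signals lay close to the detection level.

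MSR1 and FCGR2B also stood on the list of macrophage and other myeloid markers. The other markers on it did not share 1 direction. Of 8 other probes tested, 3 were greater in F2, 1 was greater in F1 and 4 did not pass, and 2 more were not tested. CD14, the lipopolysaccharide co-receptor of monocytes, was 0.140 and 0.113 in the F2 and 0.0488, 0.0401 and 0.0322 in the F1 (log2 difference 1.66 ± 0.31 SE, limma adjusted p = 0.0208). AIF1 and TYROBP were also greater in F2, by 2.18 ± 0.45 and 2.64 ± 0.40 (SE) on the log2 scale (limma adjusted p = 0.0310 and 0.0106). These 3 calls were lost under normexp background correction (limma adjusted p from 0.0616 to 0.188) and when either F2 was left out. CYBB, the membrane subunit of the phagocyte NADPH oxidase, was greater in F1, with 0.0827 and 0.0838 in the F2 and 0.341, 0.225 and 0.286 in the F1 (limma adjusted p = 0.0163), a call kept under normexp and also lost without either F2. NCF1, a cytosolic subunit of that oxidase, was 0.922 and 0.996 in the F2 and overlapped with the F1 at 1.59, 0.837 and 0.626 (limma adjusted p = 0.971). FCGR1A and FCGR3A, further Fc receptors, were each well above background in 1 F2 and in no F1. Summed over the list without its members, the signal was 3.01 and 3.28 in the F2 against 1.89 to 2.99 in the F1.

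Lymphocyte genes contributed CD3E and JCHAIN. CD3E is a signalling chain of the T cell receptor complex, and its signal was 0.0337 and 0.0242 in the F2 and -0.0254, -0.0268 and 0.00292 in the F1, a bound of 1.71-fold. JCHAIN joins the subunits of polymeric IgA and IgM and is made by plasma cells. The JCHAIN probe gave 0.134 and 0.0865 in the F2 and -0.000566, 0.0152 and 0.00345 in the F1, a bound of 6.44-fold. Neither gene overlapped between the groups, for which the rule left little room. Of 8 other listed T and NK cell markers with a matching RefSeq symbol, 5 (CD5, CD28, CD40LG, IL2RG and NCR1) were well above background in no follicle. CD8A was well above background only in F2 replicate 1, and CD247 and GZMB in all 5. The latter pair did not pass the test (limma adjusted p = 0.337 and 0.478). CD79A, the other listed B cell marker with a matching RefSeq symbol, was well above background in all 5 follicles, at 0.165 and 0.238 in the F2 and 0.354, 0.215 and 0.214 in the F1 (limma adjusted p = 0.544).

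Secreted cytokines and a defensin added 3 members. IL18, an inflammasome-activated cytokine that induces interferon gamma, gave 0.0511 and 0.272 in the F2 and 0.0170, -0.00959 and 0.00150 in the F1. The IL18 signals of the F2 differed by 5.32-fold, the largest gap of any member, and the bound of 7.06-fold became 3.06-fold from F2 replicate 1 alone and 16.3-fold from F2 replicate 2 alone. IL6, a pleiotropic cytokine of inflammation, gave 0.0361 and 0.0679 in the F2 and -0.00204, 0.0137 and 0.0130 in the F1, a bound of 2.91-fold with 2 F1 spots positive and significant. EBD, enteric beta-defensin, is an antimicrobial peptide of cattle. It gave 0.0413 and 0.0312 in the F2 and 0.00363, -0.00333 and 0.00565 in the F1, a bound of 2.15-fold.

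The list of cytokines, chemokines and receptors, which is not a complete account of such genes on the array, had 31 probes with a matching RefSeq symbol. Of these, IL18 and IL6 were members, 8 others were tested and 21 were not well above background on every array of either group and were not tested. IL1RN, left out above, was 1 of the 8 and met the detection rule, so its call says nothing further. Of the remaining 7, 3 chemokines passed, each greater in F2 (CCL2, CCL3 and CCL5), and no other probe of this list passed. CCL2 recruits monocytes, and its signal was 0.592 and 0.488 in the F2 and 0.0444, 0.0928 and 0.0264 in the F1 (log2 difference 3.49 ± 0.53 SE, limma adjusted p = 0.0115). CCL5 recruits T cells and monocytes, and its signal was 1.03 and 0.779 in the F2 and 0.0865, 0.320 and 0.183 in the F1 (limma adjusted p = 0.0435). CCL3 was detected in 2 F1 as well, and its log2 difference was 1.93 ± 0.37 SE (limma adjusted p = 0.0227). It passed the filter only through the F2 (limma adjusted p without the filter = 0.125). On the antimicrobial and acute-phase list, which held EBD, 7 other probes were tested. SAA3, an acute-phase apolipoprotein, and S100A12, a neutrophil calcium-binding protein, were greater in F2 by 5.61 ± 0.62 and 2.49 ± 0.45 (SE) on the log2 scale (limma adjusted p = 0.00358 and 0.0194), and 5 did not pass. SAA3 was not well above background on every F1 and passed the filter only through the F2. Without the filter neither passed (limma adjusted p = 0.0784 for SAA3 and 0.139 for S100A12).

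Lipid genes were 4 of the named members, 2 receptors for lipid mediators and 2 lipid carriers. Each had the greater signal in F2 replicate 2, as did 73 of the 120 members. Of all probes well above background on both F2, only 20.1% were higher in F2 replicate 1, so this is not particular to the lipid genes. FABP4 carries fatty acids in adipocytes, macrophages and capillary endothelium. The FABP4 signal was 0.167 and 0.191 in the F2 and -0.0315, -0.0115 and -0.0205 in the F1, a bound of 10.7-fold, with every F1 under background and the F2 within 1.15-fold of each other. PTGER4, the EP4 receptor for prostaglandin E2, had 0.0529 and 0.0732 in the F2 and 0.000182, 0.0124 and 0.00973 in the F1, a bound of 3.72-fold with 2 F1 spots positive and significant. LPAR1 is a receptor for lysophosphatidic acid. It had 0.0198 and 0.0339 in the F2 and 0.00101, -0.00107 and 0.0113 in the F1, and its bound of 1.55-fold was the smallest of the named members. ABCA4, a retinoid and phospholipid transporter of photoreceptors, had 0.0373 and 0.0393 in the F2 and 0.0165, -0.00320 and -0.00538 in the F1.

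FABP4, PTGER4 and MSR1 stood on the list for retinoid, lipid and lipoprotein handling. Of 15 other probes tested, 5 were greater in F2, 2 were greater in F1 and 8 did not pass. One of the 5 was OLR1, left out above, which met the detection rule. CRABP2, FABP5 and PTGES, a prostaglandin E synthase, were greater in F2 by 3.79 ± 0.53, 3.43 ± 0.26 and 3.21 ± 0.35 (SE) on the log2 scale (limma adjusted p = 0.00806, 0.000787 and 0.00338). FABP5, a relative of FABP4, was well above background in every follicle, at 0.628 and 0.686 in the F2 and 0.0675, 0.0577 and 0.0582 in the F1. PTGDS, a prostaglandin D synthase, was greater in F2 by 1.68 ± 0.38 (SE) on the log2 scale (limma adjusted p = 0.0412). SCD, the stearoyl-CoA desaturase, went the other way, with 0.368 and 0.510 in the F2 and 8.72, 10.2 and 10.1 in the F1 (limma adjusted p = 0.000352), and so did PLA2G1B (limma adjusted p = 0.00593).

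Among genes of peptide secretion and ion channels, 4 were named members and none reached a bound of 4-fold. PCSK1 is the proprotein convertase that cleaves prohormones in secretory granules. Its signal was 0.0961 and 0.0214 in the F2 and -0.00109, -0.000409 and -0.000204 in the F1. The F2 differed by 4.48-fold, F2 replicate 2 lay just above its detection level, and the bound of 2.72-fold became 5.75-fold from F2 replicate 1 alone and 1.28-fold from F2 replicate 2 alone. TAC3, the neurokinin B precursor, had 0.0384 and 0.0295 in the F2 and -0.00439, 0.00180 and 0.00381 in the F1, a bound of 2.01-fold. SYT1, a calcium sensor of vesicle release, had 0.0203 and 0.0452 in the F2 and 0.0108, 0.0279 and -0.00405 in the F1. F1 replicate 2 therefore exceeded F2 replicate 1 for SYT1, the only overlap among the named members.

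KCNJ2, an inward rectifier potassium channel, had 0.0491 and 0.0865 in the F2 and 0.00905, 0.00220 and -0.000350 in the F1, a bound of 3.90-fold. On the list of ion channels and transporters, 11 other probes were tested. TRPC4, SLC1A5 and SLC2A1, the glucose transporter GLUT1, were greater in F2 by 2.95 ± 0.56, 3.15 ± 0.58 and 1.80 ± 0.43 (SE) on the log2 scale (limma adjusted p = 0.0226, 0.0212 and 0.0464). TRPC4 was not well above background on every F1 and passed the filter only through the F2 (limma adjusted p without the filter = 0.162). GJA1, the gap junction protein connexin 43 of granulosa cells, was greater in F1 and saturated on at least 1 array, and 7 did not pass. On the neuropeptide and peptide hormone list, which held TAC3, 0 of 8 other probes were greater in F2, and the theca hormone INSL3, also saturated on at least 1 array, was greater in F1 (limma adjusted p = 0.00394).

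The remaining 5 named members had no list in common. AKR1C4, an aldo-keto reductase that acts on steroids, had 0.0351 and 0.0575 in the F2 and was under background in every F1 at -0.00196, -0.00312 and -0.00958. MAOB, a mitochondrial monoamine oxidase, had 0.0390 and 0.0409 in the F2 and 0.000695, 0.0196 and 0.0101 in the F1. Their bounds were 2.69-fold and 2.39-fold. ANXA8L1, an annexin, had 0.0910 and 0.0339 in the F2 and 0.00182, 0.00942 and 0.00930 in the F1, and its bound of 3.32-fold was 5.44-fold from F2 replicate 1 alone and 2.03-fold from F2 replicate 2 alone. LOC280930 had 0.0221 and 0.0515 in the F2 and -0.00260, -0.000506 and 0.00693 in the F1. NM_173879 had 0.226 and 0.109 in the F2 and 5.75e-06, 0.00782 and 0.00638 in the F1, a bound of 9.40-fold. For NM_173879 the F2 differed by 2.07-fold.

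**Figure D2:**
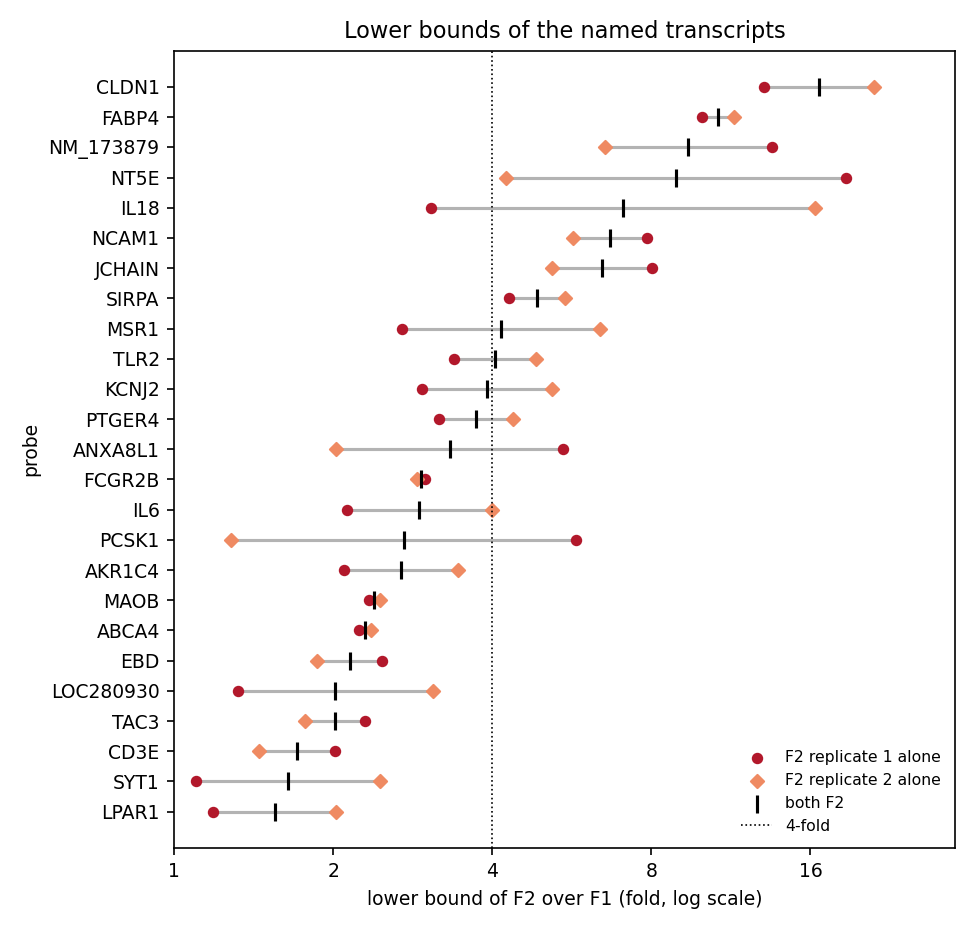
Lower bound of the F2 signal over the F1 signal for each of 25 named probes, as fold on a log scale; the black tick uses both F2, and the circle and diamond use F2 replicate 1 or F2 replicate 2 alone. Of the 10 ticks at or right of the dotted 4-fold line, 7 have both symbols there, and IL18 (3.06 to 16.3), PCSK1 (1.28 to 5.75) and NT5E (4.24 to 18.7) have the widest gaps.

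In 27.5% of the members the F2 signals differed by over 2-fold, against 10.8% of the 5268 probes well above background on both F2, and the median fold between the F2 was 1.53 and 1.32. The members were weaker spots, with a median F2 signal of 0.0490 against 0.262 in the 5268 probes. The 2 sets were not matched for signal, and the part of weak signal in the larger share was not tested. These shares are a description, since probes are not replicates and 1 pair of follicles is behind it. Among the 26 RefSeq members, 8 differed by over 2-fold and 3 by over 4-fold. Higher signals in F2 replicate 1 than in F2 replicate 2 were found in 39.2% of the members and in 20.1% of all probes on both F2. Of the 10 named bounds of at least 4-fold, 7 were at least 4-fold from each F2 alone, and IL18, MSR1 and TLR2 were not from F2 replicate 1 alone. Detection depended on the F2 as well. Had F2 replicate 2 alone been required, 402 probes would have met the rule, and 179 with F2 replicate 1 alone.

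**Figure D3:**
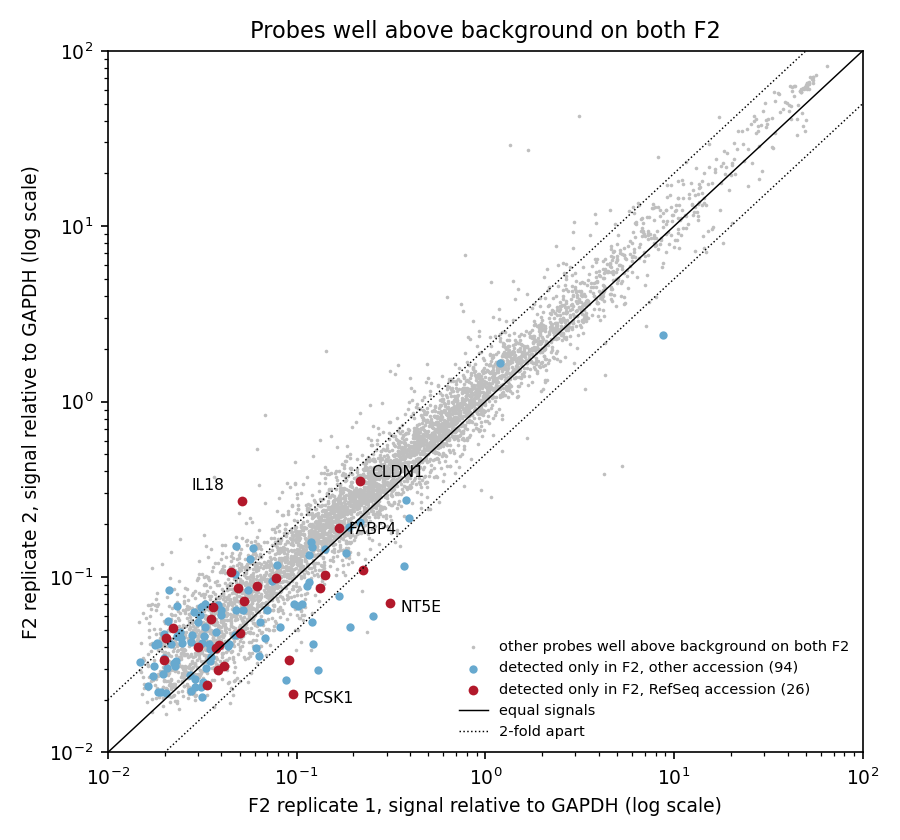
Signal of each probe in F2 replicate 1 (horizontal) and F2 replicate 2 (vertical), relative to GAPDH on log scales, with the 26 RefSeq members in red, the 94 other members in blue and all other probes well above background on both F2 in grey. Most members lie near the lower left end, next to the detection level, and IL18 lies above while NT5E and PCSK1 lie below the dotted 2-fold lines.

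The 94 members without a RefSeq mRNA accession comprised 7 GenBank accessions of the AF or AY series and 87 others of expressed sequence tag type. Their signals ranged from 0.0149 to 8.72 in F2 replicate 1 and from 0.0206 to 2.39 in F2 replicate 2. In the F1 they ranged from -0.0471 to 0.0289. The lower bound was at least 4-fold in 29 of them, with a median of 2.55-fold, and over 20-fold in 2. One of these 2 probes gave 8.72 and 2.39 in F2 replicates 1 and 2, the other 1.20 and 1.65, and both were under background in every F1. RefSeq accessions made up 21.7% of the members, 15.9% of the probes well above background on both F2 and 13.9% of the array.

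Just inside the rule, the named members whose weaker F2 signal was nearest to its detection level were PCSK1, LPAR1 and SYT1. Just outside it were 102 probes well above background on both F2 and on exactly 1 F1. Among those with a RefSeq accession, XCL1, a lymphocyte chemokine, had 4.29 and 1.41 in the F2 and -0.00696, 0.0174 and 0.0171 in the F1, and fell outside the rule through 1 weak F1 spot. HRH1, a histamine receptor, had 0.176 and 0.117 in the F2 and 0.0183, 0.0376 and 0.0169 in the F1, and CA2, a carbonic anhydrase, had 0.223 and 0.0836 in the F2 and 0.0284, 0.0235 and -0.00838 in the F1. At the other end, MUC1, ROCK2 and BTN1A1 had an F1 signal above both F2 signals. A further 341 probes were well above background on 1 F2 and on no F1, and 3481 on no array.

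Of the marker lists, granulosa cells and theca interna had the most probes called in 1 direction, each greater in F1. All 8 granulosa cell probes were greater in F1, and their summed signal, in which some F1 spots were saturated, was 13.3 and 20.4 in the F2 against 221 to 307 in the F1. FSHR and INHBB were well above background in every F1 and in neither F2, and so met the opposite pattern. CYP19A1, the aromatase, was well above background in 1 F2. Theca interna probes were greater in F1 in 4 of 7, with sums of 33.4 and 30.2 in the F2 against 69.5 to 105 in the F1. Endothelial markers summed to 0.872 and 1.32 in the F2 against 0.296 to 0.463 in the F1. Most of the F2 sums came from SELP, whose signals are given above, so they describe 1 gene more than the list. SELP was the 1 of 5 tested that passed, 4 did not, and 3 of the 5 had a positive log2 difference. CALD1, the single listed smooth muscle and pericyte marker with a matching RefSeq symbol, was 3.80-fold greater in F2 (limma adjusted p = 0.0116). Of 4 fibroblast and stroma probes tested, LUM alone passed, 3.04-fold greater in F2 (limma adjusted p = 0.0370), and 3 did not, with COL1A2 at -0.16 on the log2 scale. Neutrophil markers summed to 1.41 and 1.78 in the F2 against 0.882 to 1.60 in the F1, and CATHL1, CATHL4 and PGLYRP1 were well above background in no follicle. Of the 3 neutrophil markers tested, S100A12 alone was greater in F2, and the other 2 did not pass and had no positive log2 difference. Among markers of surface and other epithelium, 0 of 3 probes tested were greater in F2 and UPK1B was greater in F1 (limma adjusted p = 0.00635). The part of these shifts in the detection of the members was not tested.

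**Figure D4:**
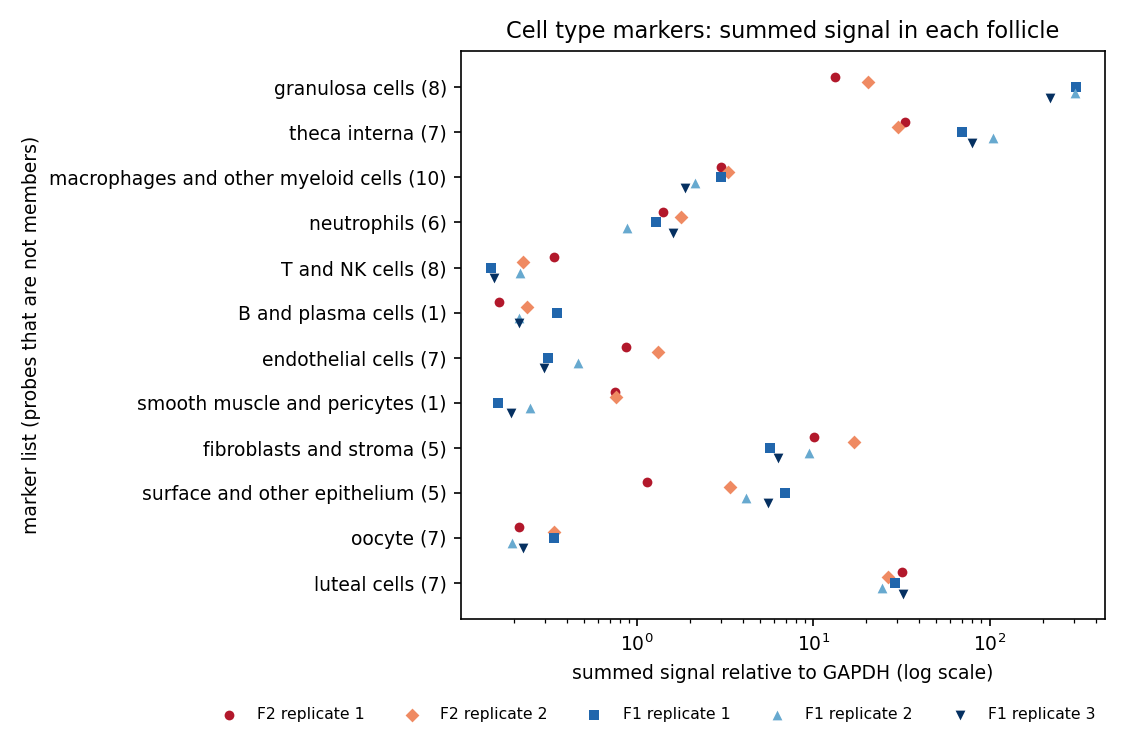
Summed signal of the probes on each cell type marker list in each of the 5 follicles, relative to GAPDH on a log scale, with members left out and the number of probes in brackets. Granulosa cell sums are 13.3 and 20.4 in the F2 and at least 221 in the F1, whereas the sums for myeloid cells (1.89 to 3.28 over all 5 follicles) lie close together.

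Over the 10 pathway lists together, 88 probes that are not members were tested, of which 24 were greater in F2 and 7 were greater in F1. IL1RN and OLR1, which met the detection rule, were among the 24, and without them 22 of 86 were greater in F2 and the median log2 difference of the lists was 0.65, beside -0.27 over all 5528 probes tested. With the 2 included, this median was 0.75, and it was 0.31 over the 75 list probes detected in every follicle, 0.26 with normexp and 0.42 without F2 replicate 2. Without F2 replicate 1 the 31 calls became 8, without F2 replicate 2 they became 12, and without the filter on weak probes 6. Counting marker lists too, 48 genes were called, of which 15 still passed without F2 replicate 1, 22 without F2 replicate 2, 39 without F1 replicate 1 and 13 without the filter. Of the genes named above that met no detection rule, FABP5, SCD, PLA2G1B and CYP19A1 passed without each follicle in turn. PLA2G1B and CYP19A1 were not well above background on all 5 arrays and passed the filter only through the F1. FSHR and INHBB also passed, but they met the opposite pattern described at the start, so their calls say nothing further. The calls of CCL2, CCL3, CCL5, SAA3, S100A12, ITGAV, ITGB5, SELP, INSL3, CRABP2, PTGDS, TRPC4, SLC1A5, SLC2A1, CD14, AIF1, TYROBP, CYBB, CALD1, LUM and UPK1B were lost when either F2 was left out, and those of PTGES and GJA1 without F2 replicate 1. Leaving out F1 replicate 1 also ended the calls of CCL3, CCL5, PTGDS, TRPC4, SLC2A1, AIF1, CYBB and LUM, F1 replicate 2 those of SLC2A1 and CD14, and F1 replicate 3 those of CCL5, PTGDS, SLC2A1 and LUM. Normexp also ended the call of CCL3. No direction of the 48 was reversed under the 13 alternatives.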

How the data were processed

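Each of the 5 follicles was hybridized to 1 Agilent one-color array. Per spot, the deposited scanner files hold a processed intensity (background subtracted) and flags from Feature Extraction 9.5.3.1, per the file headers; a spot is well above background when it exceeds local background by 2.6 SD with p under 0.01. The authors also deposited values that equal the ratio of the processed intensity to the GAPDH median of the array. Processed intensities were divided here by that median (100 spots, between 868.7 and 1411.2), and differences were tested on the log2 scale, with values under 0.001 raised to it, with limma (version 3.58.1, lmFit and eBayes; R 4.3.3) and p-values adjusted after Benjamini and Hochberg over the 5528 probes detected in all F1 or in all F2 (threshold 0.05). Lower bounds and counts were computed in Python 3.11.15. The scripts were tested on simulated data. Array number limits precision: 3 against 2 follicles cannot give an exact permutation p below 0.1. Replicates are separate follicles, and the tests treated all 5 as independent although at least 1 F2 shared a cow with 1 F1. RefSeq members were named through a RefSeq gene table (ARS-UCD2.0, names alone), except 1 that is not reported here; for lists holding a member, at most 4 called genes per direction, and markers, were also named. The members, lists and roles were chosen with earlier results of these data known. Promoter and protein sequences were not used here. Alternatives were other scalings, background corrections, filters and flags, the deposited values, a replicate block and leaving out each follicle.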

Additional observations from a re-analysis of the deposited data

How the results depend on the processing

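The number of members was 117 with the positive and significant flag in place of well above background, but only 39 of these were among the 120. It was 132 with the deposited values (118 shared), and leaving out spots with an outlier flag or saturated spots removed none. Requiring F1 spots that were not even positive and significant, an alternative chosen after seeing the data, left 39. Leaving out 1 follicle gave between 145 and 402 members. The 39 bounds of at least 4-fold became 46 with the 75th percentile, 2 with normexp, 21 with the 5th percentile as the dim level and 34 to 44 without 1 follicle, and 88 or 14 were counted at 2-fold or 8-fold. Normexp changes the background model and adds an offset in 1 step, and which of these lowered the bounds was not tested. The 634 calls over all probes became 214 without a filter, 160 to 550 without 1 follicle (344 without F1 replicate 1), and 578 to 900 under the other settings. The 31 calls on the pathway lists became 6 without a filter, 8 to 32 without 1 follicle and 29 to 39 otherwise. With the replicate number as a block the counts were 578 and 29 (465 and 28 shared). Of the 48 called genes 44 still passed with this block, and CCL5, PTGDS, SLC2A1 and LUM did not. Deviations of same-numbered follicles correlated at 0.0639 and 0.256 over 4861 probes, so the replicate block was not taken as a pairing. Under the 75th percentile the median log2 difference of all probes moved from -0.27 to -0.05. Weak signal over background limits every statement about absence in F1.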
